A study of Mus musculus with 12 samples.

Results

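The expression of 9 genes of the neural crest and Schwann cell lineage, Sox10, Foxd3, Tfap2a, Tfap2b, Erbb3, Ednrb, Ret, Ngfr and Fabp7, was followed in mouse embryonic hearts. The genes were chosen by symbol, and all 9 were among the 20368 genes of the deposited table. RNA was sequenced from hearts of CD1 embryos, with 3 libraries in each of 4 groups. The E11.5 Cre control and E12.5 Cre control embryos were Mesp1Cre;Hira+/fl, and the E11.5 Mutant and E12.5 Mutant embryos were Mesp1Cre;Hira-/fl. Every embryo therefore carried Mesp1Cre and 1 floxed Hira allele, and the mutants had a null allele in place of the wild-type one. Mesp1Cre acts in the early mesoderm that forms the heart. Neural crest arises in the ectoderm, outside the lineage in which this Cre acts, so a crest cell of a mutant heart would keep its floxed allele beside 1 null allele. The labels do not say how many hearts made up a library, and nothing tells whether the libraries of a group came from separate litters. The p-values below measure the spread between these libraries only.

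Neural crest cells leave the dorsal neural tube and migrate into the body. The cardiac crest enters the outflow tract, where it takes part in septation, and other crest cells follow nerves to the heart as Schwann cell precursors and form the parasympathetic cardiac ganglia. SOX10 and FOXD3 are transcription factors of migrating crest and early glia, and the AP-2 factors TFAP2A and TFAP2B act in crest induction and also in surface ectoderm. ERBB3 receives neuregulin signals in Schwann cell precursors, EDNRB receives endothelin 3, RET receives ligands of the GDNF family, and NGFR is the low-affinity neurotrophin receptor. FABP7 is a fatty acid binding protein of radial glia and Schwann cell precursors. Several of these genes are also used by other cells: endothelial cells express Ednrb, and the cushion mesenchyme of the heart expresses Erbb3.

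The libraries held 11994148 to 17483982 counts over the genes compared. The cardiomyocyte markers Tnnt2, Actn2, Myh6, Myh7, Nppa, Nkx2-5 and Ttn were all present in all 12 libraries, with a summed level of 12640 to 20220 CPM, the count of a gene scaled to a common library size. By the counts of Y-linked genes, the E11.5 controls were 3 males and the E11.5 mutants 1 male and 2 females, and at E12.5 each group had 1 male and 2 females. Hira, the targeted gene, lay between 68.6 and 86.2 CPM in the E11.5 controls and between 57.0 and 73.7 CPM in the E11.5 mutants. At E12.5 it lay between 60.7 and 86.5 CPM in the controls and between 70.4 and 79.7 CPM in the mutants. The groups overlapped at both stages, and a count over the whole gene in a mixture of cells does not check the recombination of the floxed allele.

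The 9 genes differed widely in level. Per gene length, in RPKM (CPM per kilobase of gene, computed from the counts), Ednrb had a mean of 37.3 over the 12 libraries and ranked 2372 of 17827 genes with reads. Erbb3 followed at 3.86 RPKM, Ngfr at 1.36 and Fabp7 at 1.16. Tfap2a, Tfap2b and Sox10 had means of 0.255, 0.166 and 0.147 RPKM. Ret and Foxd3 were lowest at 0.0478 and 0.0366 RPKM, with 61 and 16 counts in all 12 libraries together. The lowest library for Ednrb, at 24.0 RPKM, lay above the highest for Erbb3, at 7.34, and the lowest for Erbb3, at 2.41, lay above the highest for Ngfr, at 2.12. Below these the ranges of neighbouring genes overlapped, so that Ngfr and Fabp7, and likewise Tfap2a, Tfap2b and Sox10, had no firm order. In whole-heart RNA, fewer cells of a type and less RNA per cell cannot be told apart.

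**Figure D1:**
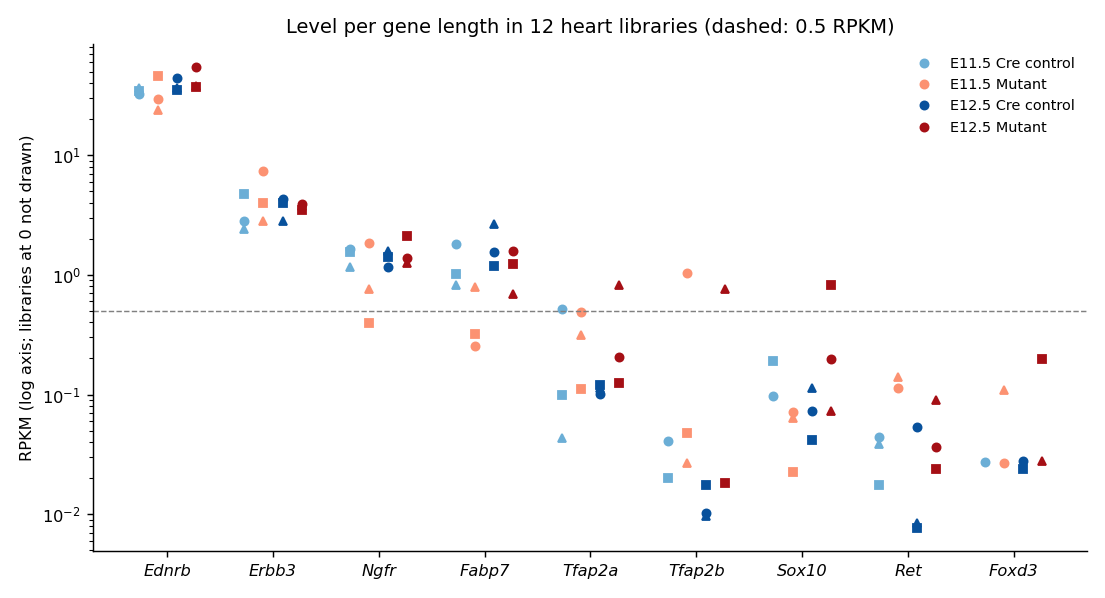
RPKM of the 9 genes (log axis) in each of the 12 libraries, coloured by group, with circle, square and triangle for replicates 1, 2 and 3 and the filter at 0.5 RPKM dashed. Ednrb lay between 24.0 and 54.5 RPKM in every library, whereas Sox10, Tfap2a and Tfap2b exceeded 0.5 RPKM in only 1, 2 and 2 libraries.

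Genes with a mean of at least 0.5 RPKM over the libraries of a comparison were tested with edgeR's quasi-likelihood test, and a gene was called where its p, adjusted by Benjamini-Hochberg over all genes tested, reached 0.05 or less and its level differed by 1.5-fold or more. Of the 9 genes, 4 passed the filter in every comparison, Ednrb, Erbb3, Ngfr and Fabp7. The other 5, Sox10, Foxd3, Tfap2a, Tfap2b and Ret, passed in none and are given by their counts. Of the 4 tested genes, 0 were called between mutant and control at E11.5, where 0.115% of all genes tested were called. At E12.5, 0 of 4 were called, against 3.03% of all genes tested. For the difference between the mutant effects at the 2 stages, 0 of 4 genes and 0% of all genes were called, although 552 of 12270 genes had an unadjusted p under 0.05 and DESeq2 called 40. Between the controls of the 2 stages, 0 of 4 were called, against 5.31% of all genes tested. These shares over all genes also apply to the gene lists below. DESeq2, limma and every other setting tried also called 0 of these 4 genes, in 77 fits. The other 5 entered only the fits without the filter and, for Tfap2a and Ret, some with the filterByExpr filter of edgeR, where 0 were called in 23 tests. The unadjusted p was under 0.05 for 1 of the 4 at E11.5, Fabp7, and for 0 of them at E12.5.

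Ednrb, the endothelin receptor type B gene (chromosome 14, 103814625 to 103844173, minus strand, GRCm38), was the most abundant of the 9. In CPM it measured 130, 138 and 148 in the E11.5 controls and 119, 185 and 96.8 in the E11.5 mutants. In the E12.5 controls it measured 178, 140 and 148, and in the E12.5 mutants 220, 151 and 153. The highest library at each stage was a mutant, and so was the lowest at E11.5, and the groups overlapped at both stages. The log2 fold change of mutant over control was -0.06 ± 0.22 (SE, n = 3 against 3, adjusted p = 0.966 by edgeR) at E11.5, with a 95% interval of -0.55 to 0.43. At E12.5 it was 0.18 ± 0.14 (adjusted p = 0.499), with an interval of -0.13 to 0.49. A 1.5-fold change is a log2 value of 0.58, just outside the first of these intervals. With the sex of the embryo as a covariate the E11.5 value was -0.52 (adjusted p = 0.265), so a change of that size cannot be set aside at E11.5.

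Of the genes around EDNRB, the ligand gene Edn3 was at 1 to 18 counts in all libraries. Ece1, which encodes the enzyme that processes endothelins, was high at 58.1 RPKM, and its fold change was 0.49 ± 0.25 on the log2 scale at E11.5 (adjusted p = 0.571) and 0.25 ± 0.11 at E12.5 (adjusted p = 0.222). Ednra, the type A receptor gene of crest-derived outflow mesenchyme, had a log2 fold change of -0.35 ± 0.16 at E11.5 (adjusted p = 0.523) and -0.32 ± 0.13 at E12.5 (adjusted p = 0.195). Edn1, the ligand of EDNRA, fell from E11.5 to E12.5 controls by 0.65 on the log2 scale (SE 0.12, adjusted p = 0.0178 by edgeR), a call lost without E12.5 control 1 or 2, with sex as a covariate, with limma at a pseudocount of 1 and in the fit of all 12 libraries (adjusted p up to 0.428). Both receptor genes and Ece1 were thus measured with SEs of at most 0.25, and none of these 3 was called between genotypes.

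Erbb3 (chromosome 10, 128567523 to 128589652, minus strand) measured 11.3, 18.9 and 9.68 CPM in the E11.5 controls and 29.5, 16.2 and 11.4 CPM in the E11.5 mutants. At E12.5 the controls measured 17.2, 15.9 and 11.3 CPM and the mutants 15.8, 14.0 and 15.2 CPM. The high value of 29.5 CPM belonged to E11.5 Mutant 1, which also had the highest count of Tfap2b. The log2 fold change was 0.52 ± 0.36 at E11.5 (adjusted p = 0.743), with an interval of -0.30 to 1.34, and became 0.05 without E11.5 Mutant 1. At E12.5 it was 0.03 ± 0.15 (adjusted p = 0.924), with an interval of -0.31 to 0.37. With the sex of the embryo as a covariate the E11.5 value was -0.23, so no direction can be given there.

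The partner and ligand of ERBB3 were also measured. Erbb2, which encodes the receptor that signals together with ERBB3 and is abundant in cardiomyocytes, had a log2 fold change of -0.34 ± 0.16 at E11.5 (adjusted p = 0.518) and -0.34 ± 0.13 at E12.5 (adjusted p = 0.154). Nrg1, the neuregulin gene, differed by 0.01 ± 0.24 at E11.5 (adjusted p = 0.994) and -0.05 ± 0.26 at E12.5 (adjusted p = 0.931). Neither gene was called at either stage.

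Ngfr (chromosome 11, 95568818 to 95587735, minus strand) measured 5.62, 5.30 and 4.0 CPM in the E11.5 controls and 6.35, 1.34 and 2.58 CPM in the E11.5 mutants. At E12.5 it measured 3.96, 4.79 and 5.35 CPM in the controls and 4.68, 7.24 and 4.25 CPM in the mutants. E11.5 Mutant 2 and 3 thus lay below all other libraries, and E11.5 Mutant 1 above all 3 of its controls. The log2 fold change was -0.53 ± 0.49 at E11.5 (adjusted p = 0.825), with an interval of -1.64 to 0.57, -1.36 without E11.5 Mutant 1 (adjusted p = 0.280) and -0.94 with sex as a covariate (adjusted p = 0.501). At E12.5 it was 0.22 ± 0.24 (adjusted p = 0.648), with an interval of -0.31 to 0.74. The E11.5 interval is wide enough to hold a fall of over 1.5-fold and no change alike.

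The neurotrophin receptor genes Ntrk2 and Ntrk3 showed the same 2 low libraries. Ntrk3, the receptor gene for neurotrophin 3, had 79, 38 and 59 counts in the E11.5 controls and 117, 1 and 9 in the E11.5 mutants. Ntrk2, the receptor gene for BDNF, had 120, 54 and 114 counts in the E11.5 controls and 91, 5 and 12 in the E11.5 mutants. Isl1, a transcription factor gene of second heart field progenitors and of neurons, named after its values were seen, had 134, 160 and 187 counts in the controls against 124, 11 and 32 in the mutants. E11.5 Mutant 2 and 3 were therefore low for all 4 genes, while E11.5 Mutant 1 lay at 91 counts or more for each. Whether the amount of outflow or nerve tissue in these hearts differed was not tested. Ntrk3 was tested at E11.5 and differed by -0.48 ± 0.98 on the log2 scale (adjusted p = 0.936).

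**Figure D2:**
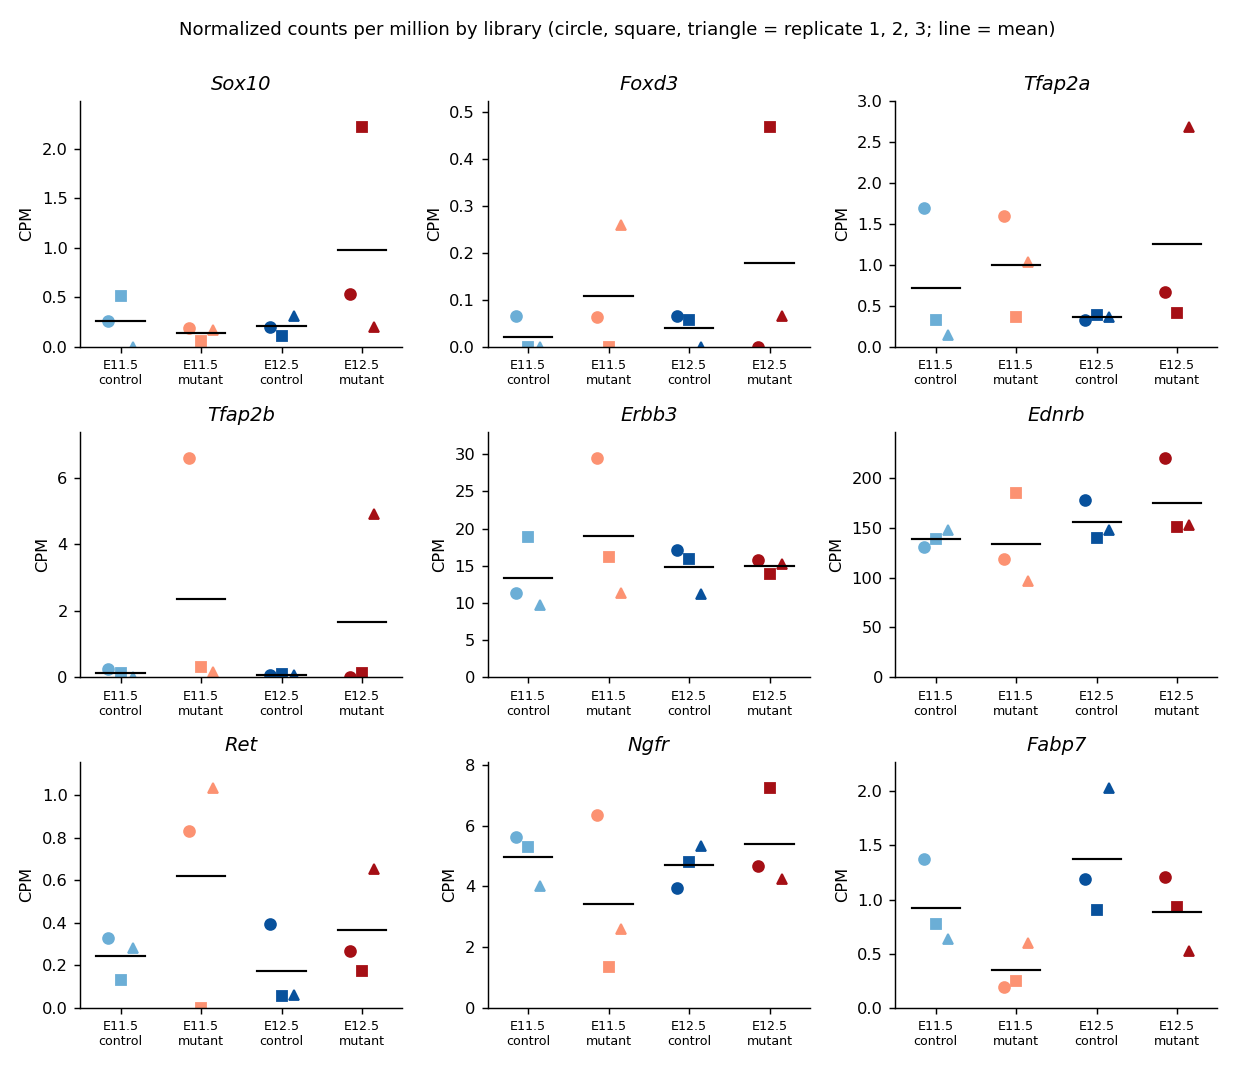
Normalized CPM of each of the 9 genes, with 3 libraries per group (circle, square and triangle for replicates 1, 2 and 3) and the group mean as a line. Sox10, Foxd3 and Tfap2b each had 1 library or 1 library per stage far above the rest, Ngfr had 2 low E11.5 mutant libraries, and Fabp7 was lower in all 3 E11.5 mutants than in the controls.

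Fabp7 (chromosome 10, 57784881 to 57788450, plus strand) was the member with the largest fold change among those tested. It had 21, 12 and 9 counts in the E11.5 controls and 3, 4 and 7 in the E11.5 mutants. At E12.5 it had 18, 16 and 33 counts in the controls against 18, 16 and 8 in the mutants. At E11.5 all 3 mutants lay below all 3 controls, with group means of 0.346 and 0.926 CPM, and the groups did not overlap for 16.3% of all genes tested at this stage. The log2 fold change was -1.48 ± 0.59 (95% interval -2.81 to -0.15), with an unadjusted p of 0.0333 and an adjusted p of 0.435 by edgeR. An exact two-sided permutation test gave p = 0.1, the smallest that 3 against 3 allows. At E12.5 the groups overlapped, with a log2 fold change of -0.61 ± 0.42 (adjusted p = 0.449) and an interval of -1.54 to 0.32. The lower E11.5 level was thus not called, rested on 42 against 14 counts, and moved to -0.62 with sex as a covariate.

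**Figure D3:**
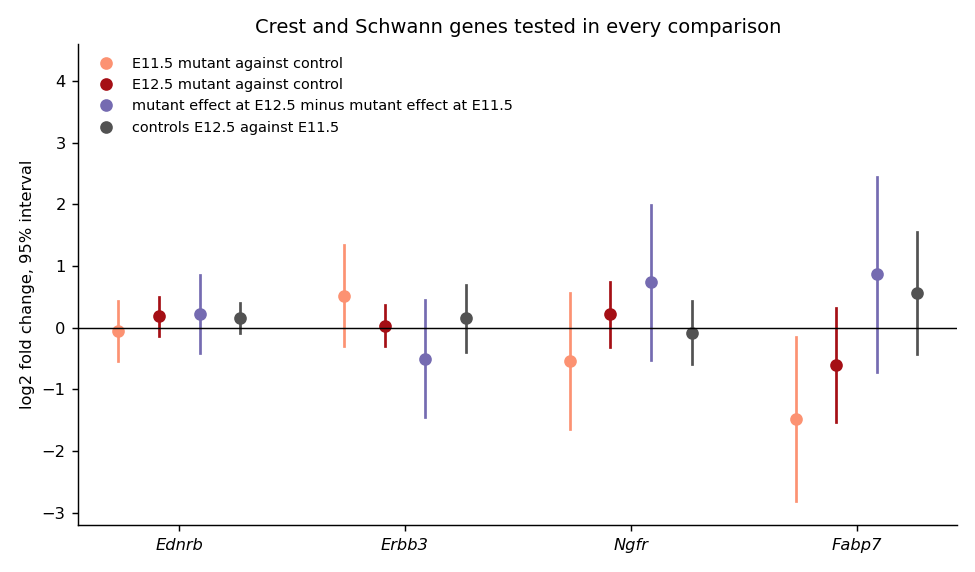
Log2 fold changes of the 4 genes tested, with 95% intervals from edgeR (n = 3 libraries per group), for mutant over control at each stage, for the difference between these effects and for E12.5 over E11.5 controls. All intervals hold 0 except that of Fabp7 at E11.5, -2.81 to -0.15.

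For the difference between the mutant effects at the 2 stages, the values were 0.22 ± 0.29 for Ednrb, -0.50 ± 0.44 for Erbb3, 0.73 ± 0.58 for Ngfr and 0.86 ± 0.74 for Fabp7 on the log2 scale. The adjusted p was 0.954 for each. Between E11.5 and E12.5 controls, Ednrb differed by 0.16 ± 0.11 (adjusted p = 0.335), Erbb3 by 0.15 ± 0.25 (adjusted p = 0.711), Ngfr by -0.08 ± 0.23 (adjusted p = 0.839) and Fabp7 by 0.56 ± 0.45 (adjusted p = 0.415). Neither the stage nor its combination with the genotype gave a call for any of the 4.

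Sox10 (chromosome 15, 79154913 to 79164490, minus strand), the defining gene of crest-derived glia, was near the limit of detection. It had 4, 8 and 0 counts in the E11.5 controls and 3, 1 and 2 in the E11.5 mutants. At E12.5 it had 3, 2 and 5 counts in the controls against 8, 38 and 3 in the mutants. A library with 0 counts allows up to 3 counts, which is 0.169 to 0.258 CPM at these depths, counting error only. The single library E12.5 Mutant 2 held 38 of the 77 counts, or 49.4%, at 2.22 CPM, and the next highest library was at 0.535 CPM. The E12.5 groups overlapped (exact two-sided permutation p = 0.3). Without the filter on low values, the E12.5 log2 fold change was 2.27 ± 0.78 (adjusted p = 0.108 by edgeR) and was not called.

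Foxd3 (chromosome 4, 99656299 to 99658671, plus strand) had 1, 0 and 0 counts in the E11.5 controls and 1, 0 and 3 in the E11.5 mutants. At E12.5 it had 1, 1 and 0 counts in the controls against 0, 8 and 1 in the mutants. Its highest library was again E12.5 Mutant 2, with 8 of all 16 counts. The gene has 89 exonic bases in common with the miRNA gene Gm23366 on the same strand, so these few counts are not surely its own.

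Other genes of the crest and Schwann lineages differed in whether they were high in the same library. Gfra3, which encodes the artemin co-receptor of RET, had 12 counts in E12.5 Mutant 2, 12 in E11.5 control 1 and 0 to 3 elsewhere. The Schwann genes Cdh19 and S100b did not stand out there: Cdh19 had 21 counts against 32 in E11.5 Mutant 1, and S100b 5 counts against 10 in each of 2 other libraries. The skeletal muscle genes Myod1 and Myog were also highest in E12.5 Mutant 2, at 17 and 39 counts, against 0 to 9 and 1 to 20 elsewhere. The part of non-cardiac tissue in the Sox10 value was not tested.

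The genes most like Sox10 over the 12 libraries, after the mean of each group was subtracted from log2(CPM + 0.5), were sought among genes of at least 0.5 RPKM. They were Fam192a (Pearson r = 0.954), Traf3ip1, 9030025P20Rik, Ttyh1 (r = 0.914), Pfn4, Rad9b, Tmem43, Pld5, Plk1 and Inip (r = 0.844). Without E12.5 Mutant 2, r was 0.752 to 0.918 for the 10 genes. The libraries share their depth and their counting, and the genes were picked as the highest among all those measured, so these values describe the pattern only. Among them Ttyh1, a membrane protein gene of neural progenitors and glia, was also in the list of glial genes.

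Tfap2a (chromosome 13, 40715675 to 40733823, minus strand) had 26, 5 and 2 counts in the E11.5 controls and 25, 6 and 12 in the E11.5 mutants. At E12.5 it had 5, 7 and 6 counts in the controls against 10, 7 and 41 in the mutants. In CPM all 3 E12.5 mutants, at 0.669, 0.409 and 2.68, lay above the controls, at 0.330, 0.395 and 0.369, though the lowest mutant and the highest control both had 7 counts. An exact two-sided permutation test gave p = 0.1, the smallest possible, and 26.4% of all genes tested did not overlap at this stage. Without the filter, its E12.5 log2 fold change was 1.76 ± 0.63 (adjusted p = 0.129 by edgeR). Tfap2a shares 73 to 380 exonic bases with each of 3 antisense genes, and whether the counting used the strand is not given in the sources used here.

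Tfap2b (chromosome 1, 19208914 to 19238734, plus strand) was a gene of 2 libraries. It had 4, 2 and 0 counts in the E11.5 controls and 103, 5 and 2 in the E11.5 mutants. At E12.5 it had 1, 2 and 1 counts in the controls against 0, 2 and 75 in the mutants. E11.5 Mutant 1 and E12.5 Mutant 3 thus held 178 of its 197 counts, and the other 4 mutant libraries were at 0 to 5 counts like the controls. The groups overlapped at both stages (exact two-sided permutation p = 0.2 at E11.5 and 0.7 at E12.5). Without the filter, the log2 fold change was 4.09 ± 1.23 at E11.5 (adjusted p = 0.214) and 4.24 ± 1.29 at E12.5 (adjusted p = 0.0675), with no call at either stage.

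The AP-2 genes were high where epithelial genes were high. Epcam, Cdh1, Krt5 and Trp63, genes of gut, skin and other epithelia named after their values were seen, summed to 335 counts in E11.5 control 1, 162 in E11.5 Mutant 1 and 695 in E12.5 Mutant 3, and to 17 to 53 counts in the other 9 libraries. These are the 3 libraries with the highest Tfap2a, at 26, 25 and 41 counts. Krt5, a keratin of basal epidermis, had 427 counts in E12.5 Mutant 3 and 0 to 15 elsewhere. Nkx2-1, a factor of lung and thyroid epithelium, had 50 counts in E11.5 Mutant 1, 13 in E12.5 Mutant 3 and 0 to 5 elsewhere. Tfap2b was high in 2 of these libraries and had 4 counts in E11.5 control 1. The whole list of 9 epithelial genes, led by Krt8 and Krt18, summed to 98.8 to 143 CPM in the E11.5 controls, 120 to 148 in the E11.5 mutants, 36.9 to 57.8 in the E12.5 controls and 90.9 to 151 in the E12.5 mutants. Shh was at 0 to 1 counts and Foxa2 at 0 to 2 in every library. The part of epithelial tissue in the AP-2 values was not tested.

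**Figure D4:**
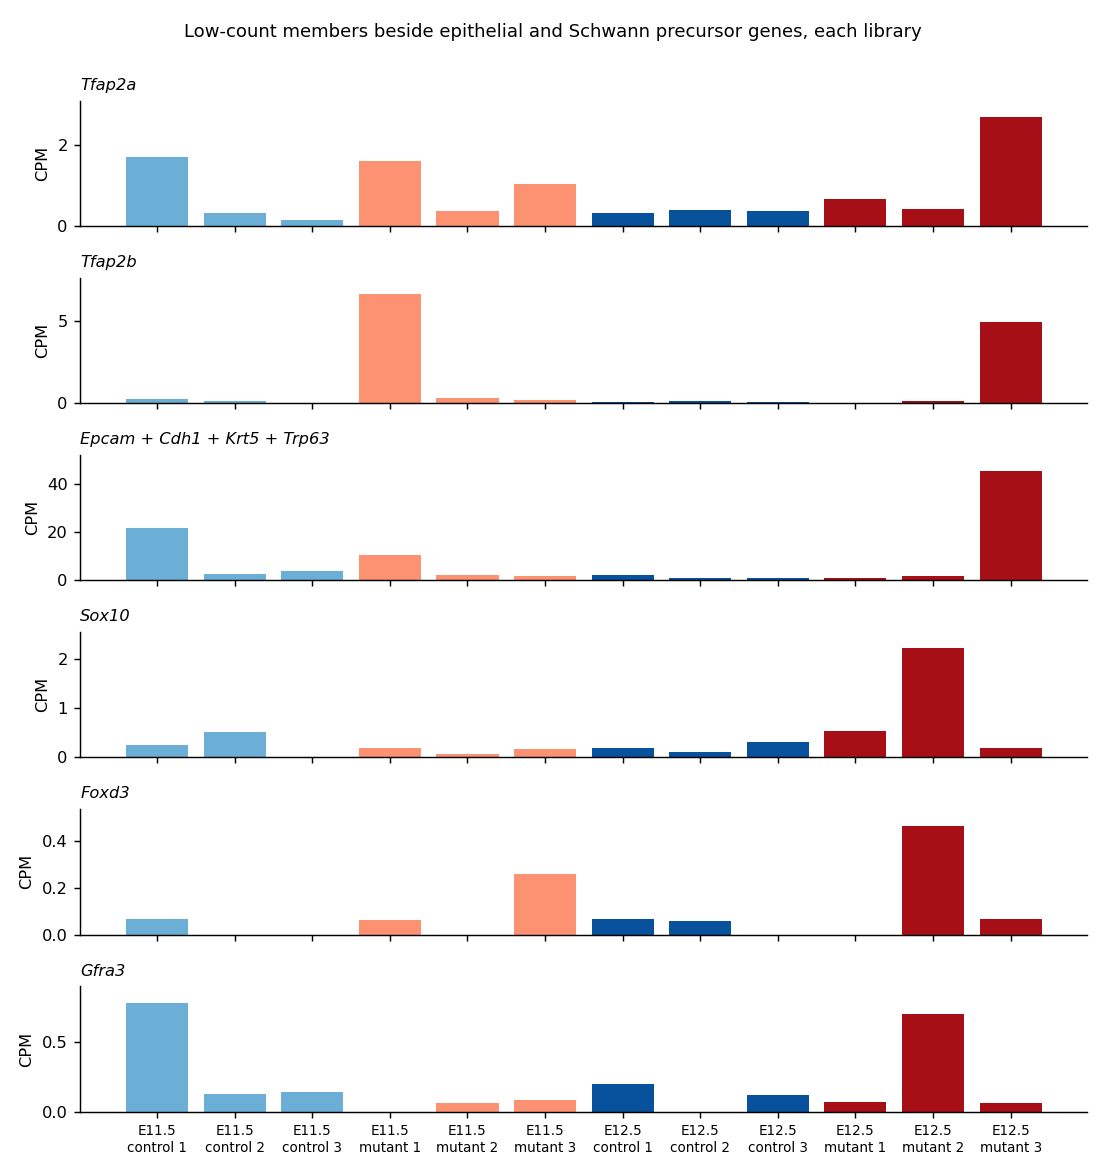
CPM in each of the 12 libraries (bars, 1 library each, coloured by group) for Tfap2a, Tfap2b, the sum of Epcam, Cdh1, Krt5 and Trp63, Sox10, Foxd3 and Gfra3. Tfap2a and the epithelial sum were highest in E11.5 control 1, E11.5 Mutant 1 and E12.5 Mutant 3, and Sox10 and Foxd3 in E12.5 Mutant 2, while Gfra3 had 12 counts in each of E12.5 Mutant 2 and E11.5 control 1.

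By the rule used for Sox10, the 5 genes most like Tfap2b were Cacng4 (r = 0.914), Papd7, Fgfr2 (r = 0.896), 2410131K14Rik and Prrg2 (r = 0.868). Fgfr2 encodes a fibroblast growth factor receptor with an epithelial isoform. Without E12.5 Mutant 3, r was 0.815 to 0.943 for the 5 genes.

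Because the AP-2 genes moved together in E11.5 Mutant 1 and E12.5 Mutant 3, their promoters are shown with that of Ednrb, the most abundant gene of the 9. RefSeq promoters (GRCm38.p6, 250 bases before to 50 after the start) were at hand for 6 of the 9 genes, Foxd3, Tfap2a, Tfap2b, Ednrb, Ngfr and Fabp7. The palindromic AP-2 motif GCCNNNGGC, which reads the same on both strands, was searched in them and is written in capitals. It occurred in 1 of the 7 promoters of these genes, that of Ednrb, at -195 from the start, and in 16.6% of all 32851 promoters of the table. The 3 windows, 5′ to 3′ on the strand of the gene, are at chr13:40733746-40734045 (Tfap2a, minus strand), chr1:19211804-19212103 (Tfap2b, plus strand) and chr14:103843652-103843951 (Ednrb, minus strand).
Tfap2a: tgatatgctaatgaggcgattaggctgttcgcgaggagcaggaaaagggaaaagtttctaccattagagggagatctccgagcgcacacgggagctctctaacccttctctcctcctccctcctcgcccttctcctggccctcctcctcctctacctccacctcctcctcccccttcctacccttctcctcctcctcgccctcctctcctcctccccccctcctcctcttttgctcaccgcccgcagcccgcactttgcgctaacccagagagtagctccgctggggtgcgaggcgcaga
Tfap2b: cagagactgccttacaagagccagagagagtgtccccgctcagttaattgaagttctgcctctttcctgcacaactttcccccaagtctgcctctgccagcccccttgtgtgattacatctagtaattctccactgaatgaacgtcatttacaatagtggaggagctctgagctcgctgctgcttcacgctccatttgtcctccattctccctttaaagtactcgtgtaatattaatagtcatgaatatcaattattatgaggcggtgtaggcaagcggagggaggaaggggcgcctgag
Ednrb: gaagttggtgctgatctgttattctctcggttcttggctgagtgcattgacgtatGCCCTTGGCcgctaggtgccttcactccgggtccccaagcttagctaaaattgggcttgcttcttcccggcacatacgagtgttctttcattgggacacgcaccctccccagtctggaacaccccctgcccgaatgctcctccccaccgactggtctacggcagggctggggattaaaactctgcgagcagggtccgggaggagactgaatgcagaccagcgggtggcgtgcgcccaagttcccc
The letters of the motif were absent from the windows of Tfap2a and Tfap2b, which says nothing of binding there.

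Ret (chromosome 6, 118151748 to 118197744, minus strand) had 5, 2 and 4 counts in the E11.5 controls and 13, 0 and 12 in the E11.5 mutants. At E12.5 it had 6, 1 and 1 counts in the controls against 4, 3 and 10 in the mutants. The groups overlapped at both stages (exact two-sided permutation p = 0.4 and 0.5). The ligand genes Gdnf and Artn were at 1 to 8 and 2 to 17 counts, so Ret and these ligand genes were all close to the limit that the depth sets.

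Of the co-receptor genes of RET, Gfra1, which binds GDNF, was lower in the E12.5 mutants. It had 57, 70 and 93 counts in the E12.5 controls and 29, 42 and 23 in the mutants, with no overlap. At this stage 26.4% of all genes tested did not overlap. The log2 fold change of Gfra1 was -1.16 ± 0.27 (adjusted p = 0.0353 by edgeR). The call was lost without any 1 of the 3 E12.5 controls, without E12.5 Mutant 1 or 3, with all 12 libraries in 1 fit and with limma at a pseudocount of 1 (adjusted p up to 0.258). At E11.5 it had 23, 54 and 36 counts against 37, 11 and 7 (log2 fold change -1.02 ± 0.56, adjusted p = 0.611). Ntf3, the gene of neurotrophin 3, had 66, 74 and 87 counts in the E12.5 controls and 32, 38 and 24 in the mutants, again with no overlap. Its log2 fold change was -1.21 ± 0.24 (adjusted p = 0.0184), and the call was lost without E12.5 control 1, without E12.5 Mutant 1 and in the fit of all 12 libraries (adjusted p up to 0.0567).

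Over the whole list of 19 ligands and co-receptors, 10 were tested at each stage in mutant against control. At E12.5, 0 were called higher and 2 lower, Gfra1 and Ntf3, with a median log2 fold change of -0.33 against -0.0017 over all genes tested. Of all genes tested at E12.5, 3.03% were called. At E11.5, 0 were called and the median was -0.21 against -0.0081. In the controls 1 of 11 fell from E11.5 to E12.5, Edn1.

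Of the 14 genes of glia and Schwann cell precursors, 7 were tested at E12.5 and 2 were called higher in the mutants and 0 lower, with a median log2 fold change of 0.25 against -0.0017 over all genes. Of all genes tested at this stage, 3.03% were called. Dhh, the desert hedgehog gene that Schwann cells and also endothelial cells express, had 51, 60 and 54 counts in the controls against 117, 117 and 82 in the mutants. Its log2 fold change was 1.0 ± 0.20 (adjusted p = 0.0186 by edgeR), and the call was lost without E12.5 control 1 or 2, without E12.5 Mutant 1 or 2 and in the fit of all 12 libraries (adjusted p up to 0.0916). Ttyh1 had 20, 19 and 20 counts in the controls against 48, 84 and 39 in the mutants, a log2 fold change of 1.58 ± 0.31 (adjusted p = 0.0166). That call was lost without E12.5 control 1 or 2 and with limma at pseudocounts of 0.5 and 1 (adjusted p up to 0.0624). In both genes the 3 mutants lay above the 3 controls, and groups did not overlap for 26.4% of all genes tested at E12.5. Gap43 of this list was also higher in all 3 mutants but missed the fold threshold (log2 fold change 0.45 ± 0.088, adjusted p = 0.0169 by edgeR). Mbp, Mal and Cnp had negative log2 fold changes and were not called. At E11.5, 0 of 6 were called and the median was 0.0034 against -0.0081, and Dhh differed by a log2 value of 1.05 ± 0.31 (adjusted p = 0.249). In the controls Pmp22, a myelin protein gene that many tissues express, fell by 0.71 on the log2 scale from E11.5 to E12.5 (adjusted p = 0.0216), 1 of 6 tested, and lost that call without E11.5 control 3, without E12.5 control 1 or 2 and with sex as a covariate (adjusted p up to 0.387).

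Of the 11 neural crest specifiers, 0 of 9 tested were called at E11.5 and 0 of 8 at E12.5. The medians were -0.62 against -0.0081 over all genes at E11.5 and -0.13 against -0.0017 at E12.5. The 2 most abundant were Ets1, at 25.2 RPKM, and Twist1, at 17.9 RPKM, both of which mesodermal cells of the heart also express. Crabp1, a retinoic acid binding protein gene, fell from E11.5 to E12.5 controls by 1.26 on the log2 scale (adjusted p = 0.0356), 1 of 9 tested, and lost that call without any 1 of the control libraries other than E11.5 control 2, with limma, with sex as a covariate and in the fit of all 12 libraries (adjusted p up to 0.425). Zic1, a gene of the neural plate border, had 74 counts in E12.5 Mutant 3 and 0 to 8 elsewhere. Pax3 was at 0 to 3 counts in every library.

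Of 13 genes of autonomic neurons, 7 were tested at E12.5 and 3 were called higher in the mutants, where 3.03% of all genes tested were called. Stmn2, a tubulin-binding protein gene of growing neurites, had 98, 90 and 153 counts in the controls against 424, 351 and 412 in the mutants (log2 fold change 1.87 ± 0.20, adjusted p = 0.00127 by edgeR). Prph, the gene of the peripheral neuron filament peripherin, had 12, 9 and 4 counts against 69, 53 and 61 (log2 fold change 2.93 ± 0.37, adjusted p = 0.00245). Tubb3, a neuronal tubulin gene, had 85, 89 and 89 counts against 188, 239 and 139 (log2 fold change 1.16 ± 0.18, adjusted p = 0.00689) and lost its call in the fit of all 12 libraries. Th, the gene of the enzyme that limits catecholamine synthesis, had 9, 9 and 17 counts in the E12.5 controls and 13, 13 and 15 in the mutants. Genes of autonomic identity, named after their values were seen, were not higher. Phox2a, a factor of autonomic neurons, had 23, 18 and 15 counts in the E12.5 controls against 8, 9 and 5 in the mutants, with no overlap and no call (log2 fold change -1.28 ± 0.41, adjusted p = 0.102). Dbh, which encodes the enzyme that makes noradrenaline, did not pass the filter and had 11, 5 and 7 counts against 2, 3 and 4, again with no overlap. At this stage 26.4% of all genes tested did not overlap. The median over the list was 0.029 against -0.0017. At E11.5, 0 of 8 were called, with a median of 0.23 against -0.0081. The unadjusted p by edgeR was under 0.05 for 4 of them, as for 1252 of 12197 genes tested. Prph had 12, 3 and 10 counts in the E11.5 controls against 57, 38 and 58 in the mutants (adjusted p = 0.0950). Stmn2 had 96, 79 and 224 against 443, 248 and 359 (adjusted p = 0.249). Tubb3 had 117, 239 and 130 against 451, 236 and 315 (adjusted p = 0.246). Th was lower, with 31, 29 and 29 against 10, 14 and 15 (adjusted p = 0.315). In the controls Tubb3 and Th were lower at E12.5 than at E11.5, 2 of 7 tested. Both lost that call without E11.5 control 3, without E12.5 control 1 or 2 and with sex as a covariate, Th also without E11.5 control 1, and Tubb3 also without E12.5 control 3 and in the fit of all 12 libraries (adjusted p up to 0.564). All 3 E11.5 controls but only 1 E12.5 control were male, so sex and stage are partly confounded in every comparison of the controls.

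**Figure D5:**
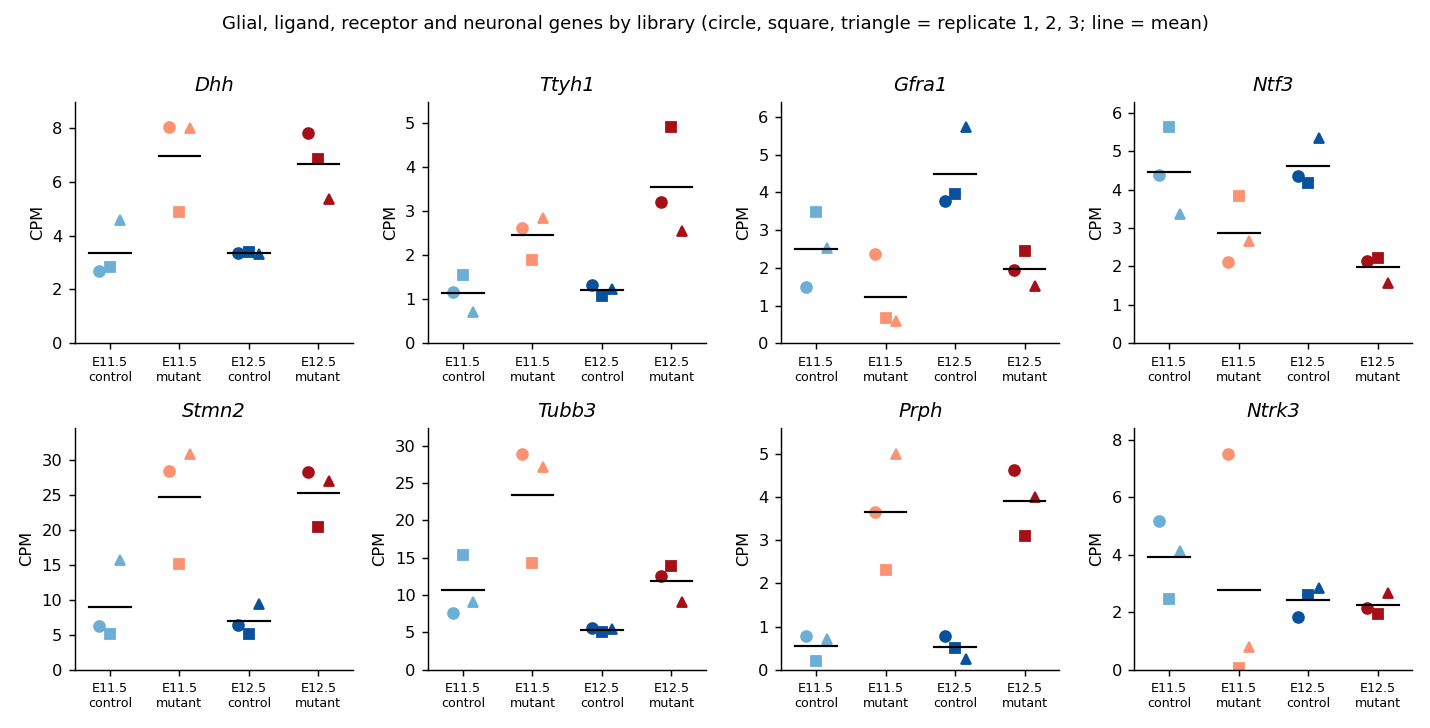
CPM of Dhh, Ttyh1, Gfra1, Ntf3, Stmn2, Tubb3, Prph and Ntrk3, with 3 libraries per group (circle, square and triangle for replicates 1, 2 and 3) and the mean as a line. At E12.5 the mutants lay above the controls for Dhh, Ttyh1, Stmn2, Tubb3 and Prph and below them for Gfra1 and Ntf3, and at E11.5 Ntrk3 had 117, 1 and 9 counts in the 3 mutants.

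Of 6 melanoblast genes, 3 were tested at each stage in mutant against control and 0 were called, with a median of 0.48 in the E11.5 comparison and of 0.093 in that at E12.5. Mitf, at 11.6 RPKM, and Kit, at 4.31 RPKM, were the most abundant, and both are also expressed by other cells of the heart. Kit rose by 0.72 on the log2 scale from E11.5 to E12.5 controls (adjusted p = 0.0460 by edgeR), and the call was lost in 9 of 17 alternatives: without E11.5 control 1 or 3, without E12.5 control 1 or 2, with sex as a covariate, with limma at each of 3 pseudocounts and in the fit of all 12 libraries (adjusted p up to 0.579). Dct and Tyrp1, which define the melanoblast, were at 0 to 5 and 0 to 2 counts. Tyr, another gene of this list, did not pass the filter in mutant against control at either stage. It had 4, 6 and 5 counts in the E11.5 controls and 17, 18 and 14 in the E11.5 mutants, with no overlap. At E11.5, 16.3% of all genes tested did not overlap. At E12.5 Tyr overlapped, with 11, 8 and 19 counts in the controls against 12, 15 and 10 in the mutants.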

How the data were processed

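RNA of embryonic hearts was extracted in triplicate and sequenced, per the study's methods, and the submitters' processing notes name Bowtie2, DESeq and mm10. The counting program, the annotation and the use of the strand are not given in the sources used here. The authors deposited average counts per gene and group, handled in the unit of expected counts since averages hold fractions, and values named RPKM, handled as a score since each deposited value is a whole count times a gene length and a library factor. From both, counts of 17827 genes were recovered to within 5.09e-10 of whole numbers, and 1597 genes had none. Counts of 604 genes outside the authors' comparisons were recovered separately and entered no fit. The authors' own fold changes, z scores and p-values were not used. No 2 libraries of 1 group agreed within sampling noise.

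A gene entered a fit where its mean RPKM over that fit's libraries reached 0.5. edgeR 4.0.16 (R 4.3.3, TMM, quasi-likelihood) was the main tool, with SEs from the F statistic, and DESeq2 1.42.0, limma 3.58.1, other filters, sex, a replicate block, a joint fit and omission of each library were alternatives. The fit was tested on simulated data. Levels use TMM over all 12 libraries, and positions GENCODE on GRCm38. Sex was called at 100 Y-linked counts. Exact permutation tests used scipy 1.17.1. The 9 genes, the lists (crest, glia, ligands, neurons, melanoblasts, epithelium, central nervous system, skeletal muscle, liver, cardiomyocytes, epicardium, blood and paralogs) and the tests were chosen with earlier results of these data known. Named were the 9 genes, list genes called in any comparison, otherwise the 2 most abundant of a list, and the 10 and 5 genes most like Sox10 and Tfap2b. Some genes of the lists are not reported here. Other genes were named after their values were seen.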

Additional observations from a re-analysis of the deposited data

Results flagged for a closer look

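Artn, the gene of the RET ligand artemin, was at 2 to 17 counts, and its groups did not overlap at either stage, in opposite directions. It had 6, 2 and 3 counts in the E11.5 controls and 17, 13 and 5 in the E11.5 mutants, with the mutants higher in CPM, and 5, 5 and 5 counts in the E12.5 controls and 2, 4 and 4 in the E12.5 mutants, all lower. Of all genes tested, 16.3% did not overlap at E11.5 and 26.4% at E12.5. With 71 counts in the 12 libraries Artn did not pass the filter, and the difference between the stages was not tested.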

How the results depend on the processing

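Of the 4 tested genes, 0 were called in any of the 77 fits, and the other 5 gave 0 calls in 23 tests without the filter or with filterByExpr. For the 4 genes, 291 alternative log2 fold changes were computed, of which 12 changed sign and 0 passed the thresholds. With sex as a covariate, Ednrb was -0.52 at E11.5, Erbb3 was -0.23 at E11.5 and -0.24 between the controls, and Ngfr 0.11 between the controls. Leaving out 1 library gave -0.36 to 0.13 for Ednrb at E11.5, -0.027 to 0.29 for Ednrb, -0.13 to 0.15 for Erbb3 and -0.063 to 0.35 for Ngfr at E12.5, and -0.032 to 0.49 for Erbb3 and -0.21 to 0.031 for Ngfr between the controls. The adjusted p of Fabp7 at E11.5 was 0.212 to 0.813 over its alternatives. Of 492 alternative values of the other called list genes, 383 kept the call, 109 lost it and 0 changed sign. Counts over all genes, with higher and lower in that order, depended more on the setting. At E11.5, 14 genes (6 and 8) became 73 (37 and 36) without the filter, 248 (112 and 136) with DESeq2, 229 (96 and 133) with all 12 libraries in 1 fit, 39 (19 and 20) with sex as a covariate, and 27 (12 and 15) or 26 (12 and 14) with limma at a pseudocount of 0.5 or 1. At E12.5, 371 (201 and 170) became 628 (347 and 281) without a fold threshold and 127 (72 and 55) with all 12 libraries, and limma at 1 gave 108 lower. The difference between stages had 0 calls and 40 (16 and 24) with DESeq2. Between the controls, 650 (345 and 305) became 1390 (674 and 716) without a fold threshold, 345 (176 and 169) with all 12 libraries, 19 (18 and 1) with sex, and 417 with limma at 1, of which 202 higher. The cause of these moves was not tested. Leaving out 1 library gave 0 to 15 genes (0 to 5 and 0 to 10) at E11.5, with 0 without control 1, control 3, Mutant 1 or Mutant 2. It gave 186 to 383 (102 to 212 and 81 to 171) at E12.5, lowest without control 1, 0 to 10 (0 to 1 and 0 to 9) for the difference, highest without E11.5 Mutant 3, and 45 to 1407 (32 to 787 and 13 to 620) between the controls, lowest without E12.5 control 1 and highest without E11.5 control 2. Deviations of same-numbered libraries correlated by -0.028, 0.43 and 0.29 at E11.5 and 0.023, 0.059 and 0.023 at E12.5. Not every library correlated best with its own number, though at E11.5 those numbered 2 and 3 did. With 3 libraries per group, these values cannot tell whether same-numbered libraries shared a litter or a batch. A replicate block gave 96 calls (46 and 50) at E11.5 and changed no call of the 4 tested genes. Depth limits Sox10, Foxd3, Tfap2a, Tfap2b and Ret, whose counts were mostly under 15 per library.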

Other observations

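Among the 15 paralogs of the SOXE, AP-2, FOXD, ERBB and FABP families and Ednra, Fabp4, a fatty acid binding protein gene of capillary endothelium and fat, was lower in the E12.5 mutants. It had 134, 405 and 171 counts in the controls against 59, 73 and 18 in the mutants (log2 fold change -2.15 ± 0.43, adjusted p = 0.0180 by edgeR), 1 of 8 tested. The call was lost without E12.5 control 2 and with all 12 libraries in 1 fit. In the controls it rose from E11.5 to E12.5 by 2.01 on the log2 scale (adjusted p = 0.0243), 1 of 9 tested, a call lost with sex as a covariate, without E11.5 control 1 or 3 and without E12.5 control 1 or 2 (adjusted p up to 0.415), and 0 of 9 paralogs were called at E11.5. Fabp3 and Fabp5 were the most abundant paralogs, at 455 and 382 RPKM.

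Of the 9 epithelial genes, 4 were tested at E12.5 and 2 were called higher in the mutants, Krt8 (log2 fold change 1.48 ± 0.15, adjusted p = 0.00127) and Krt18 (0.82 ± 0.15, adjusted p = 0.0141), keratins that the epicardium also expresses. The Krt18 call was lost without E12.5 control 1, without E12.5 Mutant 1 and in the fit of all 12 libraries (adjusted p up to 0.0796). At E11.5, 0 of 4 were called. In the controls both fell from E11.5 to E12.5, by 1.64 and 1.14 on the log2 scale, 2 of 3 tested. Both calls were lost with sex as a covariate (adjusted p = 0.0642 for Krt8), and that of Krt18 also without E12.5 control 1 or 2 (adjusted p up to 0.308).

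Of 6 epicardial genes at E12.5 only Msln was called, higher (1.03 ± 0.19, adjusted p = 0.0128), a call lost without E12.5 control 1 and in the fit of all 12 libraries (adjusted p up to 0.116), and of 3 blood genes tested Hba-a1 (-0.73 ± 0.13, adjusted p = 0.0108) and Slc4a1 (-1.64 ± 0.20, adjusted p = 0.00189) were called lower. At E11.5, 0 of 6 and 0 of 3 were called, 5 of the 6 epicardial genes had an unadjusted p under 0.05, as had 1252 of 12197 genes tested, with a median log2 fold change of -0.71, and Hba-a1 was higher in all 3 mutants. Groups did not overlap for 16.3% of all genes tested at this stage. The difference between the stages was not called for Hba-a1 (adjusted p = 0.256). Between the controls, Msln rose and Wt1, Tcf21, Upk3b and Upk1b fell, and of the blood genes Hba-a1 rose. These 6 calls were all lost with sex as a covariate and without E12.5 control 1 or 2. Those of Wt1, Tcf21, Upk3b and Upk1b were also lost without E11.5 control 3, those of Msln and Hba-a1 without E11.5 control 1 or E12.5 control 3, that of Hba-a1 without E11.5 control 2, those of Msln and Wt1 in the fit of all 12 libraries and that of Upk3b with limma (adjusted p up to 0.606). Of the 7 cardiomyocyte genes, 0 were called in any comparison, with Tnnt2 and Myh7 at 42369 to 64425 and 53006 to 119500 counts. The liver genes gave 0 calls of 3 at E11.5 and 0 of 4 at E12.5, with Afp at 2 to 787 counts and Ttr at 2 to 38. Of 5 skeletal muscle genes, 1 was tested at E12.5 and 0 were called. Of the 7 central nervous system genes, 0 were tested. Olig2, Neurod1, Neurog1, Neurog2 and Sox1 were at 0 or 1 counts in every library and Pax6 at 1 to 13. Sox3, on chromosome X and outside the comparisons, is given as mean ± SD. It measured 7.75 ± 1.81 CPM in the E11.5 controls and 4.54 ± 0.283 CPM in the E11.5 mutants (exact two-sided permutation p = 0.1). At E12.5 it measured 8.38 ± 1.5 CPM in the controls and 5.30 ± 1.76 CPM in the mutants (exact two-sided permutation p = 0.2).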
